A study of Mus musculus with 9 samples.

Results

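Mesothelial marker genes were followed in MSC2, a line grown from 1 clone of bone marrow-derived mesenchymal stromal cells of 6-week-old C57BL/6 mice. The set holds 10 genes of the 22180 measured: Msln, Muc16, Upk3b, Upk1b, Lrrn4, Lrrn4cl, Wt1, Bnc1, Krt14 and Krt7. They were taken by gene symbol, each has 1 probe set, and the set was chosen because Msln and Muc16 stood much higher after induction. Their differences from undifferentiated cells are therefore given as a description with no test. Total RNA of 3 groups was compared, with 3 biotin-labelled expression arrays each. Undifferentiated MSC2 were maintained in ascorbic acid-free alpha-MEM. Day 14 and day 28 cells had been confluent MSC2 and then received DMEM containing 0.1 µM dexamethasone, 0.2 mM ascorbic acid-2 phosphate, 10 mM beta-glycerophosphate and 1 mM pyruvate for 14 or 28 days. All media held 10% serum. Medium, confluence, culture age and induction change together between undifferentiated and induced cells, so they cannot be told apart.

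Mesothelium is the sheet of flattened cells that lines the pleura, the pericardium and the peritoneum. It has features of epithelium, such as keratins and a glycocalyx of membrane proteins, but it comes from mesoderm. Msln encodes mesothelin, a lipid-anchored surface protein, and Muc16 encodes a large membrane mucin that binds mesothelin. Upk3b and Upk1b are uroplakins, membrane proteins best known from bladder epithelium, and Upk3b is widely used to recognise mesothelial cells. Wt1 and Bnc1 are zinc finger transcription factors. Krt7 is a type II keratin of simple epithelia, and Krt14 is a type I keratin best known from the basal layer of stratified epithelia. Lrrn4 encodes a leucine-rich repeat membrane protein, and Lrrn4cl a protein named for its likeness to the C-terminal part of Lrrn4.

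Values are log2 signals centred on the median of each gene over the 9 arrays, so 0 is the middle array and no absolute level is kept. Levels of different genes can therefore not be compared, and whether a gene was silent in undifferentiated cells cannot be read from the values. A difference between groups is not touched by the centring. The SD of the difference between arrays of a group, over all genes, averaged 0.128. In the fit across all genes with limma, 35.7% of genes were called at day 14 and 39.9% at day 28 against undifferentiated cells (adjusted p under 0.05), and 7.39% between day 28 and day 14. The series text calls the 3 samples of a group independent replicates.

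Promoter sequences were held by the RefSeq table (GRCm38.p6) for 6 of the 10 genes. The 4 shown are those that hold a match of a motif named below. Of their genes, Muc16 was near its day 28 level at day 14, and Krt14 and Lrrn4 rose further by day 28. Upk3b was not called between day 14 and day 28. Bnc1 and Krt7 also rose further by day 28, and their promoters, not shown, hold no match. Each sequence is the 250 bases before the annotated start, read 5′ to 3′ on the strand of the gene. Capitals mark GGAATG, the TEAD factor motif, or TGTTCT, a hexamer bound by the glucocorticoid receptor, on either strand.
Muc16: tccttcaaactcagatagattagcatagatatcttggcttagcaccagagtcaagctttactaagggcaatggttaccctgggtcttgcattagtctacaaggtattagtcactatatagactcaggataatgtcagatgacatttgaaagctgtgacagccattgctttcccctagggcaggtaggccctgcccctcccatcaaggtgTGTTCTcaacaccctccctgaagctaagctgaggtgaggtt
Krt14: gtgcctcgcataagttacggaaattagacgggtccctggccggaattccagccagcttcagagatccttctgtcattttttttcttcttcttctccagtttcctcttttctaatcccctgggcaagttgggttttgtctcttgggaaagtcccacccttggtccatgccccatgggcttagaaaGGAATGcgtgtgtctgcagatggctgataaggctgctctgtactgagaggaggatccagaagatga
Lrrn4: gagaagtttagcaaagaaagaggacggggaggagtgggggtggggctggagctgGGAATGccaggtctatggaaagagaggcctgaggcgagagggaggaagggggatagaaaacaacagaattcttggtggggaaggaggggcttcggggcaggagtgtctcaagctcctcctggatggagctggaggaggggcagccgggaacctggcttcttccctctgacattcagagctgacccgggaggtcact
Upk3b: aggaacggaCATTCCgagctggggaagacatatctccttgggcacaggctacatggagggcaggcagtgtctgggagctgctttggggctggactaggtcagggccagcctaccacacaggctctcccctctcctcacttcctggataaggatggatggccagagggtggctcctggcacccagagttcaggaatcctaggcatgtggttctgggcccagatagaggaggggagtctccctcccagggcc
The Muc16 stretch lies at chr9:18674604-18674853 on the minus strand, that of Krt14 at chr11:100206031-100206280 on the minus strand, that of Lrrn4 at chr2:132880863-132881112 on the minus strand and that of Upk3b at chr5:136038246-136038495 on the plus strand. GGAATG, or its complement, occurred in 3 of the 6 promoters (Krt14, Lrrn4 and Upk3b), and in 12.6% of all 32851 promoters of that length. TGTTCT occurred in 1 of the 6, that of Muc16, with its first base 41 bases before the start, and in 16.1% of all. The motif letters GTGGGAG for Wt1 and TGANTCA for AP-1 were searched on both strands too. They were in 0 of the 6 windows, and in 8.25% and 6.75% of all. The motifs do not overlap each other in these windows. The 6 promoters differ widely in composition: that of Muc16 is 46.4% G and C with 0 CpG dinucleotides, and that of Bnc1 is 83.6% G and C with 39, against a median of 52.4% over all promoters. A match of letters is a description and shows no binding.

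The surface pair Msln and Muc16 was far lower in undifferentiated cells than at either time of induction. Msln (probe set 17342340) had log2 values of -3.37, -3.42 and -3.42 in undifferentiated cells, of 0.06, -0.02 and 0 at day 14 and of 0.11, 0.07 and 0.09 at day 28. The 3 undifferentiated arrays sit together far below the 6 induced ones, and the lowest day 14 array lies 3.34 above the highest undifferentiated one. This is a difference of 3.41 (SE 0.04, n = 3 each), or 10.7-fold, at day 14, and of 3.50 (SE 0.04), or 11.3-fold, at day 28. In bulk RNA, a change in the number of cells that hold a transcript and a change in RNA per cell cannot be told apart, here and below.

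Muc16 (probe set 17524311) followed a like course. Its log2 values were -3.19, -3.41 and -3.25 in undifferentiated cells, 0, 0 and 0.02 at day 14, and 0.15, 0.28 and 0.27 at day 28. The groups do not overlap, and the day 28 arrays lie just above the day 14 arrays. Its difference from undifferentiated cells was 3.29 (SE 0.06, n = 3 each), or 9.79-fold, at day 14 and 3.52, or 11.5-fold, at day 28. By size of rise among the 22180 genes, Msln ranked 25 and Muc16 26 at day 14, and 33 and 32 at day 28. Of all genes, 2.66% were at least 2-fold higher at day 14 and 3.26% at day 28.

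**Figure D1:**
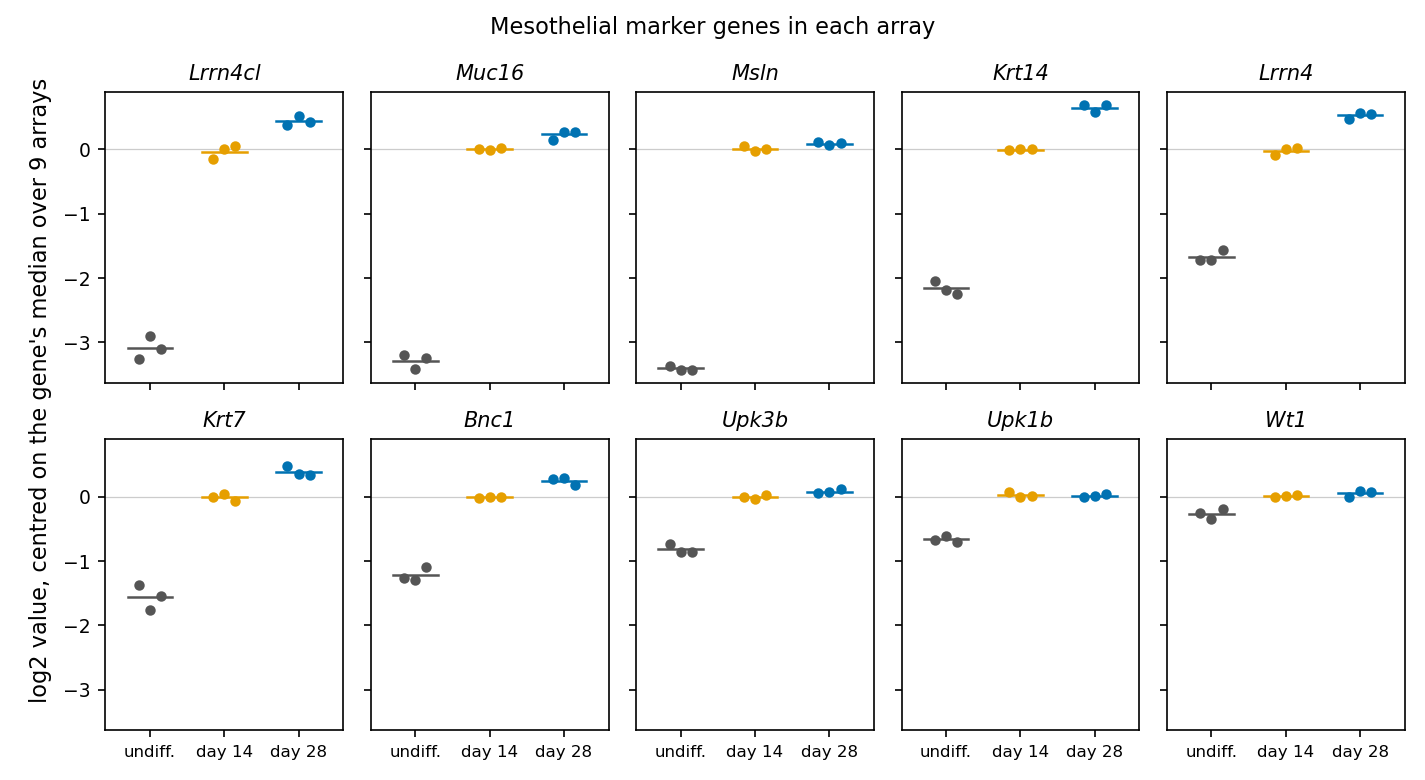
Each panel shows 1 gene, with the log2 value centred on its median over 9 arrays on the y axis and the 3 groups on the x axis. Points are arrays and lines are group means (n = 3). In all 10 panels the undifferentiated arrays lie below the induced ones, by the most in Msln, Muc16 and Lrrn4cl and by the least in Wt1.

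Lrrn4 and Lrrn4cl were lower in undifferentiated cells too. The difference of Lrrn4cl was smaller than those of Msln and Muc16 at day 14 and lay beside them at day 28. Lrrn4cl had log2 values of -3.25, -2.91 and -3.11 in undifferentiated cells, -0.15, 0 and 0.06 at day 14, and 0.38, 0.52 and 0.42 at day 28. Its spread within a group is wide beside that of Msln, with a residual SD of 0.127 against 0.0321, yet the 3 groups do not overlap. The difference from undifferentiated cells was 3.06 (SE 0.09, n = 3 each), or 8.32-fold, at day 14 and 3.53, or 11.5-fold, at day 28. Lrrn4 had -1.73, -1.73 and -1.56 in undifferentiated cells, -0.09, 0 and 0.03 at day 14, and 0.47, 0.57 and 0.54 at day 28. Its 3 groups stand in 3 separate steps, with differences from undifferentiated cells of 1.65 (SE 0.06), or 3.14-fold, at day 14 and 2.20, or 4.59-fold, at day 28.

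The keratins showed the same 3 steps. Krt14 had log2 values of -2.04, -2.18 and -2.26 in undifferentiated cells, -0.01, 0 and 0 at day 14, and 0.69, 0.58 and 0.69 at day 28. The lowest day 28 array lies 0.57 above the highest day 14 array. Krt14 was 4.46-fold higher at day 14 (log2 2.16, SE 0.06, n = 3 each) and 7.02-fold higher at day 28 (log2 2.81). Krt7 had -1.37, -1.76 and -1.55 in undifferentiated cells, 0, 0.04 and -0.07 at day 14, and 0.47, 0.35 and 0.34 at day 28. It has the widest range within a group of the 10 genes, 0.39 among the undifferentiated arrays, and the groups still do not overlap. Krt7 was 2.94-fold higher at day 14 (log2 1.55, SE 0.09) and 3.86-fold higher at day 28 (log2 1.95). Krt14 has close relatives among the type I keratins, and how far its probes also read those was not tested.

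Of the transcription factors, Bnc1 moved with the set and Wt1 stood apart by its small difference. Bnc1 had log2 values of -1.26, -1.29 and -1.09 in undifferentiated cells, -0.02, 0 and 0 at day 14, and 0.27, 0.29 and 0.19 at day 28. It was 2.31-fold higher at day 14 (log2 1.21, SE 0.06, n = 3 each) and 2.76-fold higher at day 28 (log2 1.46). Wt1 had -0.25, -0.34 and -0.19 in undifferentiated cells, -0.01, 0.01 and 0.02 at day 14, and 0, 0.09 and 0.07 at day 28. The induced arrays of Wt1 all lie above the undifferentiated arrays, by 0.19 at the nearest, while day 28 and day 14 overlap. Its difference was 0.27 (SE 0.05), or 1.21-fold, at day 14 and 0.32, or 1.24-fold, at day 28.

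The differences of the uroplakins lay between those of Wt1 and the rest. Upk3b had log2 values of -0.74, -0.85 and -0.85 in undifferentiated cells, 0, -0.03 and 0.02 at day 14, and 0.05, 0.07 and 0.12 at day 28. Upk1b had -0.67, -0.61 and -0.71 in undifferentiated cells, 0.07, 0 and 0.01 at day 14, and 0, 0.01 and 0.04 at day 28. Undifferentiated and induced arrays are apart in both genes, and in Upk1b the day 28 and day 14 arrays overlap. Upk3b was 1.76-fold higher at day 14 (log2 0.81, SE 0.05, n = 3 each) and 1.86-fold higher at day 28, and Upk1b was 1.61-fold higher at day 14 (log2 0.69, SE 0.04) and 1.60-fold higher at day 28.

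**Figure D2:**
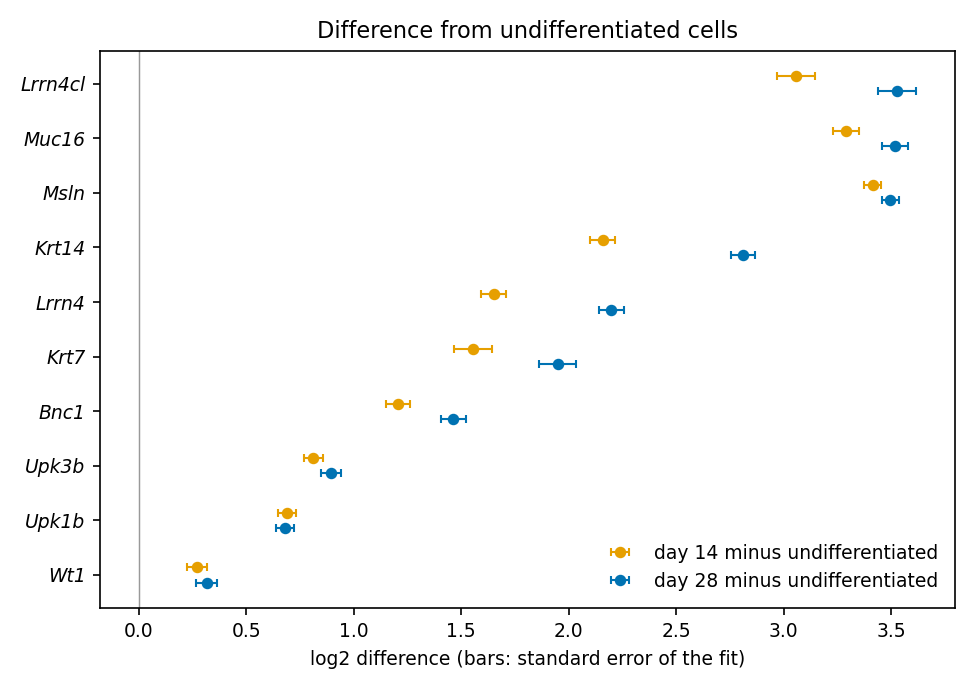
The x axis gives the log2 difference of day 14 (orange) and day 28 (blue) from undifferentiated cells for each of the 10 genes, with the standard error of the fit as bars. Values run from 0.27 for Wt1 to 3.41 for Msln at day 14, and from 0.32 for Wt1 to 3.53 for Lrrn4cl at day 28. The comparisons share the undifferentiated arrays.

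The median difference of the 10 genes was 1.60 at day 14 and 2.07 at day 28, beside 0.005 and 0.02 over all genes. Of the 10 genes, 7 were at least 2-fold higher at each time. For all 10 the groups did not overlap, as for 22.9% of all genes at day 14 and 24.2% at day 28 with the induced arrays above. Nothing is read from these counts, since the genes were chosen on this contrast. Set in order of the day 28 difference, Lrrn4cl (3.53), Muc16 (3.52) and Msln (3.50) lie within their standard errors of each other. Further down, each gene differs from its neighbour by more than its standard error. Krt14, Lrrn4, Krt7, Bnc1, Upk3b, Upk1b and Wt1 follow at 2.81, 2.20, 1.95, 1.46, 0.89, 0.68 and 0.32. Quantile normalization applied again forces equal spread on the arrays. It was run on the centred values, where groups need not have equal spread, so by itself it can shrink or stretch differences. It lowers the differences of Msln to 1.68 at day 14 and 1.77 at day 28, and the median of the 10 to 0.82 and 1.54. All 10 stayed above 0, and 4 were at least 2-fold higher at day 14 and 6 at day 28.

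The comparison of day 28 with day 14 asks which of these genes went on changing, and its undifferentiated arrays enter only through the shared spread. The 8 genes other than Msln and Muc16 were tested here. Of these, 5 rose between day 14 and day 28, 0 fell and 3 were not called, where 2.72% of all genes were called higher and 4.67% lower. Of the 10, 0 were at least 2-fold higher, as 0.0631% of all genes were. After quantile normalization again Krt14 was, at a log2 difference of 1.002, as 0.289% of all genes were. Krt14 rose by 0.65 (95% interval 0.53 to 0.78, limma adjusted p = 0.000100), which is 1.57-fold. Lrrn4 rose by 0.55 (95% interval 0.42 to 0.68, limma adjusted p = 0.000356) and Lrrn4cl by 0.47 (95% interval 0.28 to 0.67, limma adjusted p = 0.00947). The day 28 arrays lie above the day 14 arrays in each of the 3, as they do in 10.7% of all genes. Quantile normalization again raised the late steps of Lrrn4 to 0.86 and of Lrrn4cl to 0.72. The late step of Lrrn4 was then larger than its difference of 0.83 between day 14 and undifferentiated cells, and that of Krt14 stood beside one of 1.09. In the values as deposited, Lrrn4 differed by 1.65 at day 14 and rose by 0.55 after it. Which step of Lrrn4 is larger thus depends on this setting, which forces equal spread on centred values.

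Krt7 rose by 0.40 (95% interval 0.20 to 0.59, limma adjusted p = 0.0225) and Bnc1 by 0.26 (95% interval 0.13 to 0.38, limma adjusted p = 0.0231). These 2 calls are close to the threshold. Each was lost when any of 5 arrays was left out, namely the 3 day 14 arrays and day 28 replicates 1 and 2. The adjusted p then reached 0.0843 for Krt7 and 0.0834 for Bnc1. No call of Krt14, Lrrn4 or Lrrn4cl was lost in this way, and the adjusted p of Lrrn4cl reached 0.0458. In the test against a 1.5-fold change 0 of the 8 genes were called, and at an adjusted p under 0.01 there were 3.

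Upk3b, Upk1b and Wt1 did not pass the test between day 28 and day 14. Their differences were 0.08 (95% interval -0.02 to 0.18, limma adjusted p = 0.351), -0.01 (-0.10 to 0.09, limma adjusted p = 0.940) and 0.05 (-0.06 to 0.15, limma adjusted p = 0.665). A further rise of more than 0.18 lies outside each of these intervals. Msln differed by 0.08 and Muc16 by 0.23 between day 28 and day 14, given with no test. At day 14 Msln had reached 97.7% of its day 28 difference from undifferentiated cells and Muc16 93.5%, whereas Lrrn4 had reached 75.1% and Krt14 76.8%. After quantile normalization again these shares were 95.3% for Msln, 85.0% for Muc16, 49.2% for Lrrn4 and 52.2% for Krt14. The size of the late step therefore varied among the 10 genes from -0.01 to 0.65, with a median of 0.24, beside 0.002 over all genes.

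**Figure D3:**
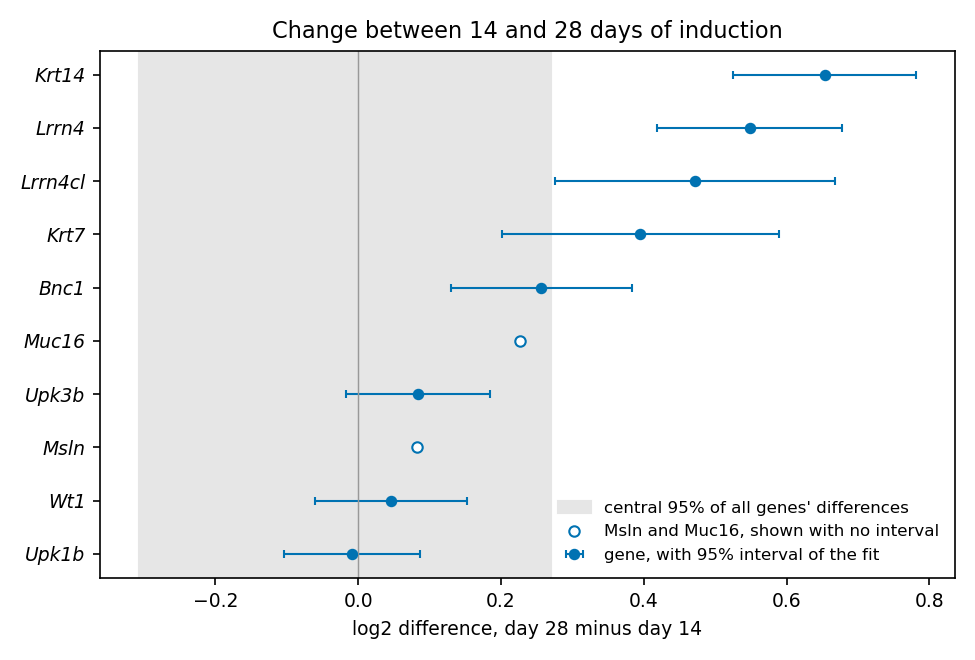
The x axis gives the log2 difference of day 28 minus day 14. Filled points are the 8 tested genes with their 95% interval, open points are Msln and Muc16, and the grey band holds the central 95% of the differences of all genes (-0.31 to 0.27). Krt14, Lrrn4, Lrrn4cl and Krt7 lie to the right of the band, and the other 6 lie inside it.

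Genes with the most similar course over the 9 arrays were found by the root mean square difference of the centred log2 values. Nearest to Msln were Dpep1, a membrane dipeptidase gene, at 0.09, then Mmp10, which encodes a secreted metalloproteinase, at 0.11, Saa3, a serum amyloid gene, at 0.12, Muc16 at 0.12 and Fabp4, a fatty acid carrier gene, at 0.13. Nearest to Muc16 were Msln at 0.12, Vtcn1, which encodes an immune checkpoint ligand, at 0.13, Mmp10 at 0.13, Fabp4 at 0.14 and Npl, a sialic acid lyase gene, at 0.15. Msln and Muc16 are thus on each other's short list, along with genes that are not in the set. Both were chosen for their strong rise, and this distance depends on the size of that rise. Nothing is therefore read from their closeness. Of the 5 nearest genes, 3 remained for Msln and 1 for Muc16 after quantile normalization again, and 3 and 2 without undifferentiated replicate 2.

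Further genes expressed by mesothelial cells, which were not among the 10, were mostly higher after induction. Of 23 measured, 14 rose and 1 fell at day 14, and 16 rose and 0 fell at day 28, against 18.2% and 20.4% called higher over all genes. Their median difference was 0.25 at day 14 and 0.42 at day 28. Many of them, such as Prg4, Igfbp6, Pdpn and Gas1, are also made by fibroblasts and other stromal cells. This list and those below were drawn up with earlier results of these data known, so their counts are a description. The p-values given for genes of these lists are likewise descriptions of the fit and no independent tests. Prg4, which encodes the lubricant lubricin, had log2 values of -3.08, -3.05 and -2.71 in undifferentiated cells, -0.04, 0 and 0.06 at day 14, and 0.61, 0.80 and 0.82 at day 28. It rose by 2.95 at day 14 (SE 0.10, limma adjusted p = 3.56e-09) and by 3.69 at day 28 (limma adjusted p = 4.84e-10).

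Igfbp6, which encodes an insulin-like growth factor binding protein, rose by 2.97 at day 14 (limma adjusted p = 9.54e-11) and 3.21 at day 28. Its 3 day 14 arrays hold the same value, so its spread there is understated. Cldn15, a claudin gene, had log2 values of -2.32, -2.17 and -1.99 in undifferentiated cells, 0, 0 and 0 at day 14, and 0.39, 0.40 and 0.42 at day 28. It rose by 2.16 at day 14 (SE 0.07, limma adjusted p = 3.33e-09) and 2.57 at day 28. The day 14 arrays of Cldn15 are nearly equal too, the lowest at -0.000168, so its spread there is likely understated. Gas1, a hedgehog co-receptor gene, rose by 2.02 (limma adjusted p = 3.86e-08) and 2.26. At day 14 the rises of these 4 genes lie between those of Lrrn4 and Msln. Quantile normalization again changed the size of list genes as it did that of the 10: for the 94 called at day 14 the median ratio to the values given here was 0.613, for the 108 called at day 28 it was 0.737, and for the 34 called between day 28 and day 14 it was 1.41. No sign changed among these. Gpm6a, Pdpn (podoplanin) and Rspo1, an enhancer of Wnt signalling, rose by less, with 0.93, 0.96 and 0.62 at day 14.

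Some well-known mesothelial genes did not pass the test at either time. Calb2, which encodes calretinin, differed by -0.01 at day 14 (95% interval -0.10 to 0.07, limma adjusted p = 0.863) and 0.06 at day 28 (95% interval -0.03 to 0.15). Nkain4, Itln1, which encodes intelectin, and Has1, a hyaluronan synthase gene, differed by -0.07, 0.05 and -0.01 at day 14, and by 0.04, 0.04 and 0.10 at day 28. Aldh1a2, a retinoic acid synthesis gene, fell by 0.24 at day 14 (limma adjusted p = 0.0148) and was not called at day 28 (-0.10). Its call at day 14 was lost without undifferentiated replicate 1 or day 14 replicate 3. Between day 28 and day 14, 5 of the 23 rose and 0 fell, namely Cldn15, Efemp1, Slpi, Igfbp6 and Prg4, where 2.72% of all genes were called higher. Slpi, a secreted protease inhibitor gene, rose by 0.51 over that step and Prg4 by 0.74. Igfbp6 lost its call (adjusted p 0.0601 to 0.0643) without any of the 3 day 14 arrays or day 28 replicate 3, and 3 of the 5 were left when genes with equal arrays were removed.

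**Figure D4:**
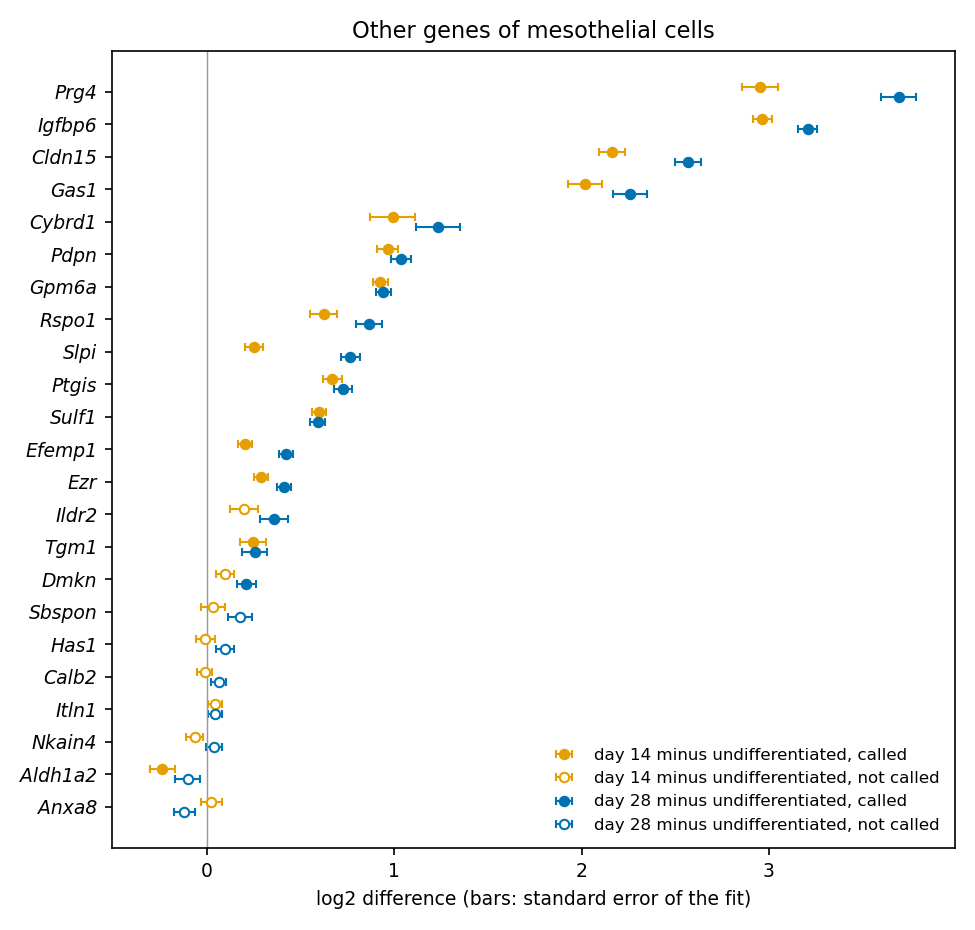
The x axis gives the log2 difference of day 14 (orange) and day 28 (blue) from undifferentiated cells for 23 other genes of mesothelial cells, with the standard error of the fit as bars. Filled points passed the limma test and open points did not. Prg4, Igfbp6, Cldn15 and Gas1 lie above 2, and Calb2, Nkain4, Itln1 and Has1 lie near 0.

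Transcription factors of the coelomic lining and the epicardium moved in both directions. Of 19 measured, 7 rose and 6 fell at day 14, and 10 rose and 7 fell at day 28, where 18.2% of all genes were called higher and 17.5% lower at day 14, and 20.4% and 19.5% at day 28. Bnc2, the paralogue of Bnc1, rose by 1.00 at day 14 and 1.45 at day 28 (limma adjusted p = 4.02e-09), and its 3 day 14 arrays hold the same value. Gata6 rose by 0.78 at day 14 and 0.95 at day 28, and Myrf by 0.49 and 0.67. Tbx18 fell by 0.85 at day 14 and 1.30 at day 28 (limma adjusted p = 1.49e-08). The TEAD genes, whose proteins bind the GGAATG motif, were lower in all 4 members, with Tead4 at -0.54 and Tead1 at -0.50 at day 14. After quantile normalization again 3 of the 19 fell at day 14, and Tead2 (adjusted p 0.0965) and Tead3 (0.183) lost their calls.

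Partners and reported targets of Wt1 did not move one way, beside the small difference of Wt1 itself. Of 17 measured, 3 rose and 7 fell at day 14, and 4 rose and 8 fell at day 28. This is 17.6% higher and 41.2% lower at day 14, against 18.2% and 17.5% of all genes, and 23.5% higher and 47.1% lower at day 28, against 20.4% and 19.5%. Amhr2, the receptor gene for anti-Müllerian hormone, had the largest rise, 2.91 at day 14 (SE 0.14, limma adjusted p = 6.61e-08) and 3.40 at day 28. Podxl, which encodes the sialomucin podocalyxin, rose by 1.27 and 1.04. Ereg, a growth factor gene, fell by 1.62 at day 14 and 1.47 at day 28, and Wnt4 fell by 0.94 and 1.00.

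The shares of relatives of the 10 genes called were no higher than that of all genes, at 30.8%, 35.7% and 23.5% of 3 lists at day 14 against 35.7% of all genes, and 30.8%, 35.7% and 35.3% at day 28 against 39.9%. Of 13 genes of the mesothelin family and of mucins, galectins and related surface proteins, 1 rose and 3 fell at day 14, and 2 rose and 2 fell at day 28. With quantile normalization again 1 fell at day 14, and 0 rose and 1 fell at day 28. Mcam, which encodes a cell adhesion molecule, had the largest change of this list and fell by 2.31 at day 14 (limma adjusted p = 1.66e-09) and 2.62 at day 28. Emcn, the gene of the sialomucin endomucin, rose by 0.93 and 0.68. The mesothelin relatives Mslnl, Strc and Otoa differed by -0.06, -0.02 and -0.005 at day 14, and the mucin genes Muc1 and Muc4 by 0.06 and 0.03. None of these 5 was called at either time. Of 14 uroplakins and tetraspanins, the family of Upk1b, 4 rose and 1 fell at each time, and with quantile normalization again 1 rose at day 14. The uroplakin genes Upk1a, Upk2, Upk3a and Upk3bl were not called, with differences at day 14 of -0.03, 0.02, -0.06 and 0.12. The tetraspanin gene Tspan15 rose by 0.52 at day 14 and 1.12 at day 28, and Tspan2 fell by 0.70 and 1.23. Of 17 genes of leucine-rich repeat membrane proteins, 2 rose and 2 fell at day 14 (1 and 0 with quantile normalization again), and 4 rose and 2 fell at day 28 (1 fell with quantile normalization again). The rises at day 14 numbered 1 without any single array other than undifferentiated replicate 3, the call of Lrrc4b being lost. Flrt1 rose by 0.86 at day 14 (limma adjusted p = 2.3e-05) and rose at day 28 too (limma adjusted p = 2.55e-07), while Flrt3 fell by 0.34 and 0.74. The neuronal leucine-rich repeat genes Lrrn1 and Lrrn3 differed by -0.05 and -0.02 at day 14 and were not called at either time.

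Other keratins changed less than Krt14 and Krt7. Of 19 measured, 7 rose and 1 fell at day 14, and 6 rose and 2 fell at day 28, beside 18.2% and 20.4% called higher over all genes. After quantile normalization again 3 rose at day 14. The 2 falls at day 28 were 0 or 1 when any 1 of the 9 arrays was left out. Krt15, a basal type I keratin gene, rose by 0.90 at day 14 (limma adjusted p = 1.5e-05) and 1.02 at day 28. Krt23 rose by 0.80 and 1.17, with the same value on 3 arrays of a group, and quantile normalization again left it uncalled at day 14 (adjusted p 0.148). The simple keratin genes differed among themselves: Krt8 rose by 0.31 at day 14 and 0.59 at day 28, a call at day 14 that quantile normalization again ended (adjusted p 0.1), whereas its usual partner Krt18 differed by 0.03 (95% interval -0.08 to 0.14) and 0.05 and was not called.

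Genes of epithelial junctions and identity gave a share called higher near that of all genes and a smaller share called lower. Of 39 measured, 6 rose and 1 fell at day 14, and 8 rose and 1 fell at day 28, which is 15.4% and 20.5% called higher against 18.2% and 20.4% of all genes. Called lower were 2.56% at each time, against 17.5% and 19.5% of all genes. Spint2, a protease inhibitor gene, rose by 1.61 at day 14 and 1.75 at day 28, and the desmosomal gene Perp by 0.94 and 0.96. Cdh1, which encodes E-cadherin, differed by -0.004 at day 14 (95% interval -0.10 to 0.09) and 0.06 at day 28. Epcam, Grhl2 and Esrp1 differed by -0.02, -0.03 and -0.002 at day 14 and were not called at either time. Each of these 3 has 3 equal arrays in a group.

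Among genes of mesenchymal transition more fell than rose. Of 18 measured, 3 rose and 8 fell at day 14, and 3 rose and 9 fell at day 28, where 17.5% and 19.5% of all genes were called lower. Snai2, a repressor of epithelial genes, fell by 0.78 at day 14 and 1.11 at day 28 (limma adjusted p = 7.2e-09). Cdh2, which encodes N-cadherin, fell by 0.83 and 1.16, and Twist2 by 0.71 and 1.03. Quantile normalization again left Twist2 uncalled at day 14 (adjusted p 0.219). Vim, Twist1 and Prrx1 were not called at either time. S100a4 rose by 0.88 at day 14 and 0.96 at day 28.

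**Figure D5:**
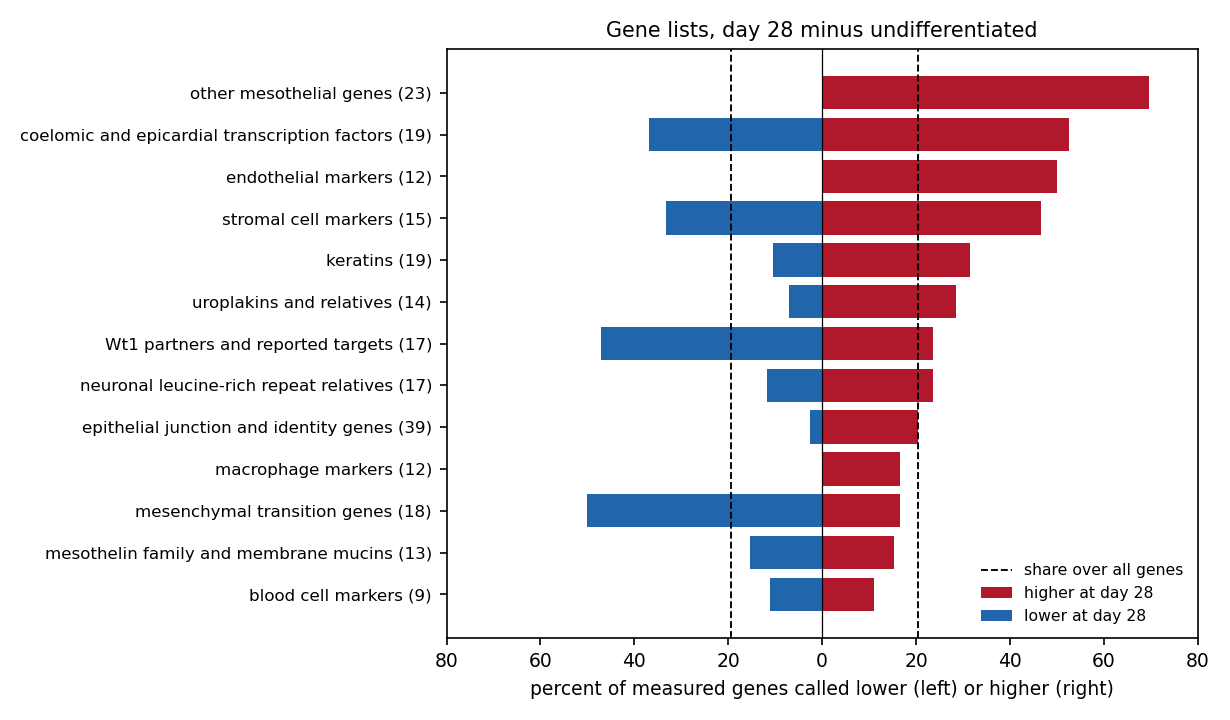
Bars give the percent of the measured genes of each list called higher (right, red) or lower (left, blue) at day 28 against undifferentiated cells, with the number of measured genes in brackets. Dashed lines mark 20.4% higher and 19.5% lower over all genes. The other mesothelial genes have 16 of 23 higher and 0 lower, and the mesenchymal transition genes have 9 of 18 lower.

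Markers of other cell types were set beside the 10 genes. The labels describe stromal cells, and of 15 stromal markers 7 rose and 5 fell at each time (46.7% and 33.3%, against 18.2% higher and 17.5% lower over all genes at day 14, and 20.4% and 19.5% at day 28), with Pdgfra up by 1.27 and Cd44 at -2.29 at day 14. The mean of the stromal list ran from -0.24 to -0.21 in undifferentiated arrays, -0.01 to 0.005 at day 14 and 0.07 to 0.11 at day 28. Since no level is kept, the presence or absence of a cell type cannot be read from these values. The mean of the 10 mesothelial genes ran from -1.85 to -1.79, -0.02 to 0.01 and 0.26 to 0.28 in the same groups.

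Of 12 endothelial markers 4 rose and 0 fell at day 14, which is 33.3% against 18.2% of all genes called higher. At day 28 6 rose, which is 50% against 20.4% (2 rose after quantile normalization again, and 3 without undifferentiated replicate 1 or day 28 replicate 1), led by Kdr at 1.91 and Erg at 1.18 at day 14. Their mean ran from -0.37 to -0.28 in undifferentiated arrays, -0.003 to 0.09 at day 14 and 0.02 to 0.04 at day 28. Of 12 macrophage markers 2 rose at each time, which is 16.7%, namely Csf1r by 1.81 and Cd68 by 0.30 at day 14, while Adgre1 and Itgam were not called. Cd68 lost its call at day 14 with quantile normalization again (adjusted p 0.226). Their mean ran from -0.19 to -0.18, -0.04 to 0.03 and 0.04 to 0.10 in the same order. Of 9 blood cell markers Elane rose and Pf4 fell at each time, 11.1% in each direction, the rise at day 14 being lost without undifferentiated replicate 2 or 3, any day 14 array or day 28 replicate 2. Quantile normalization again left neither called at day 14 (limma adjusted p 0.27 for Elane and 0.0604 for Pf4). Ptprc, which marks all leukocytes, differed by 0.04 at day 14 (95% interval -0.04 to 0.13). The part of these cell types in the differences of the 10 genes was not tested.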

How the data were processed

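RNA of 9 MSC2 arrays was measured. The deposited values are on a log2 scale and come from RMA, per the submitters' processing notes. Neither its version nor a genome build was found there. Base 2 follows from RMA, and the direction, more RNA for a higher value, is assumed. All 33794 probe sets have a median of 0 over the 9 arrays, so each was centred on its median by a step that the labels do not name. Every array has a median of 0 as well.

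The platform annotation gives 1 gene for 23521 probe sets, several for 1814 and none for 8459. Single-gene probe sets were averaged per symbol into 22180 genes, and 0 symbols changed on matching to RefSeq. No probe set naming several genes names a member. Equal values on all arrays of a group occur in 873 genes, which understates their spread. This holds for 0 of the 10 members.

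The limma package (3.58.1, R 4.3.3) fitted 1 mean per group (lmFit and eBayes, all 9 arrays, 6 residual and 3.81 prior degrees of freedom). P-values were adjusted by Benjamini-Hochberg over all genes, and called means below 0.05. The fit was tested on simulated data. The number of arrays limits the precision. The members and the 13 gene lists (224 of 237 genes measured) were chosen with earlier results of these data known. Named are all members, up to 4 called genes per list, direction and comparison, defining genes that were not called, and the 5 nearest genes to Msln and to Muc16. The alternatives were quantile normalization again on the centred values, other groups in the fit, other probe set rules, a replicate block and a trended robust prior. Further ones were adjusted p under 0.01, a 1.5-fold test, leaving out tied genes and leaving out each array. The labels do not say that equal replicate numbers mark pairs, so the main fit holds no block.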

Additional observations from a re-analysis of the deposited data

How the results depend on the processing

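Over all settings tried, the 10 genes stayed higher at day 14 and at day 28 than in undifferentiated cells, and no named difference reversed while called. Quantile normalization again lowered the differences from undifferentiated cells most, and raised the late steps of Krt14, Lrrn4 and Lrrn4cl by over 1.5 times. It forces equal spread on centred values, so the sizes it gives are not better estimates. Calls numbered 7920, 8845 and 1639 genes for day 14 minus undifferentiated, day 28 minus undifferentiated and day 28 minus day 14. In the test against a 1.5-fold change they numbered 1582, 2010 and 28, and list genes 36, 44 and 1 in place of 94, 108 and 34. Of the 8 members tested between day 28 and day 14, 5 were called, and 0 in the 1.5-fold test. At an adjusted p under 0.01 that comparison gave 813 genes, 3 members and 22 list genes. Leaving out 1 array at a time, day 28 minus day 14 gave 991 genes (without day 14 replicate 1) to 1573, 3 to 5 members and 23 to 35 list genes, with 1017 genes without day 14 replicate 2. With the replicate number as a replicate block, 4 of the 8 members were called, and Bnc1 was at an adjusted p of 0.0509. Deviations of same-numbered arrays correlated at -0.139 to 0.0677, so no strong shared deviation is seen over all genes. This cannot tell whether equal numbers mark a shared culture or day, which the labels do not say. The low values of undifferentiated arrays have no known background level, which limits how large a fold can be read.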
